A study of Mus musculus with 9 samples.

Results

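The *Dlk1*-*Dio3* imprinted domain of mouse chromosome 12 was followed through 8 of its genes, *Wars*, *Begain*, *Dlk1*, *Meg3*, *Rtl1*, *Rian*, *Mirg* and *Dio3*, out of 55450 genes counted. They were taken by name and by position along the chromosome. The study compared the primordium of the anterior pituitary with the mature gland. RNA was sequenced from Rathke’s pouch, the epithelial fold that forms the anterior and intermediate lobes, of 7 Sox2Egfp/+ embryos at e13.5. The adult libraries came from the pituitaries of 2 mice at postnatal week 8, after removal of the posterior lobe. All animals were of a mixed 129Sv/c57BL6J background, both sexes were used at both stages, and sex is not given for single libraries. The libraries were made from poly(A) RNA by a kit that keeps the strand, so that each gene has a count on its own strand and a count on the opposite, antisense strand.

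In an imprinted domain, genes are expressed mainly from the copy inherited from one parent. Here *Dlk1*, *Rtl1* and *Dio3* encode proteins and are expressed mainly from the paternal copy, while *Meg3*, *Rian* and *Mirg* are non-coding RNAs expressed from the maternal copy, and a methylated region between *Dlk1* and *Meg3* controls both sets. *Dlk1* marks progenitor cells in several tissues and is expressed in the pituitary, and *Meg3* was described as a non-coding RNA of the normal human pituitary that is lost in some of its tumours. The parental copies were not told apart in these counts.

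The domain was taken from the start of *Wars* to the end of *Dio3* (chr12:108860030-110281097, GRCm38), a length of 1421 kb. *Wars* and *Begain* lie at its proximal edge on the minus strand, at −593 kb and −421 kb from the start of *Dlk1*. *Dlk1* is followed on the plus strand by *Meg3*, 88.2 kb on, by *Rian*, 151 kb on, and by *Mirg*, 277 kb on. *Rtl1* lies between *Meg3* and *Rian* on the minus strand, and *Dio3*, on the plus strand, begins 826 kb after the start of *Dlk1*. The annotation holds 128 genes in this stretch, 69 of them for miRNAs and 23 for snoRNAs. Of the 128, 18 averaged 5 counts or more per library, the 8 members among them, and no miRNA gene reached that mean. Mature miRNAs are not captured by poly(A) selection and were not measured.

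The embryo libraries held 16738863 to 28537311 read pairs counted on genes, and adults 1 and 2 held 36421545 and 31191117. Counts are given as CPM, the count of a gene relative to the counts of its library, scaled by edgeR’s TMM factors, and 3 counts in a library, taken as the floor, came to at most 0.220 CPM in an embryo and 0.0843 CPM in an adult. No fold change is given where every library of a stage was at or below the floor. The libraries of embryos 1 and 4 stood apart from the other 5. Of their read pairs, 59.7% and 62.8% fell on a gene. The other 5 embryos had 73.9% to 80.0%, and adults 1 and 2 had 84.0% and 83.7%. The 9 erythroid marker genes made up 14.7% of the counts of embryo 1 and 17.0% of those of embryo 4. In the other embryos they made up 0.778% to 2.08%, and in the adults 0.0864% and 0.226%. Results that rest on embryos 1 and 4 are given with and without them.

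The 19371 genes that averaged 5 counts or more entered the quasi-likelihood test of edgeR. A gene was called at a Benjamini–Hochberg adjusted p below 0.05 and a fold change above 4, and log2 fold changes are embryo over adult. All 8 members were tested and 2 were called, against 25.8% of all genes tested. *Dio3* was called higher in the embryo, as were 11.3% of all genes, and *Meg3* was called higher in the adult, as were 14.6%. *Dio3* reached the mean of 5 counts only through the embryos, so the filter itself bears on its call and its direction. Without the threshold on fold change, 5 members had an adjusted p below 0.05, against 51.4% of all genes. *Wars*, *Dlk1* and *Dio3* were higher in the embryo (24.0% of all genes), and *Meg3* and *Rian* were higher in the adult (27.4%). The members’ share of calls was thus near that of all genes. The CPM of embryos and adults did not overlap for 4 members, against 59.1% of all genes. The median log2 fold change was 0.29 over the members and −0.04 over all genes. A correction of each library for exon length and GC content moved *Rian* from −1.38 to 1.13 and *Meg3* from −2.27 to −0.72, and neither then passed the test. Without embryos 1 and 4, the log2 fold changes of 4 members moved little, to 1.45 (*Wars*), 0.21 (*Begain*), 1.66 (*Dlk1*) and −0.27 (*Mirg*). *Meg3* and *Rian* are among the longest genes tested, with 18089 and 18234 bp of exon. Only 181 and 174 of the 19371 genes were at least as long, and 153 had a GC content as low as that of *Rian* (35.8%). The tissues are mixtures of cells, so that fewer cells of a type and less RNA per cell cannot be told apart in any of these values.

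**Figure D1:**
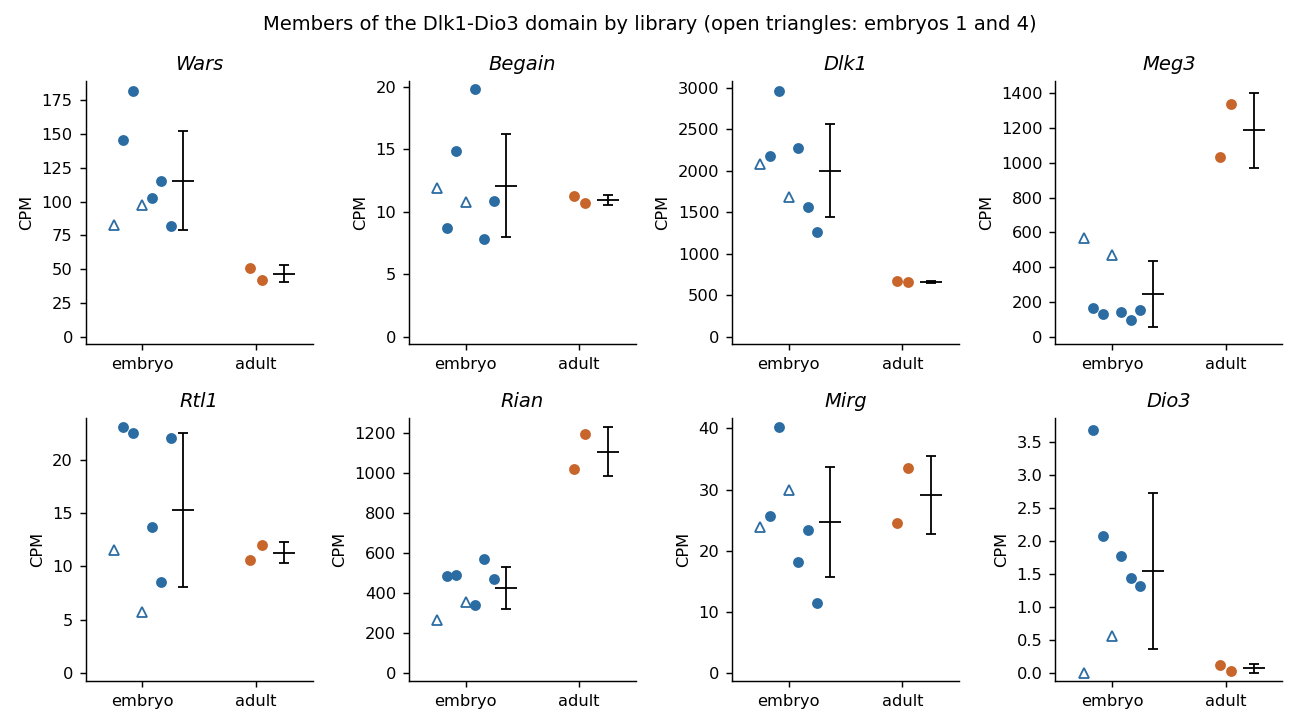
CPM of each member in the 7 embryo and 2 adult libraries, with the mean and SD beside each group and open triangles for embryos 1 and 4. *Wars* and *Dlk1* lie above both adults in all 7 embryos, *Meg3* and *Rian* lie below both, and the groups overlap for *Begain*, *Rtl1* and *Mirg*. *Dio3* lies above both adults in 6 embryos, and embryo 1 had no count.

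**Figure D2:**
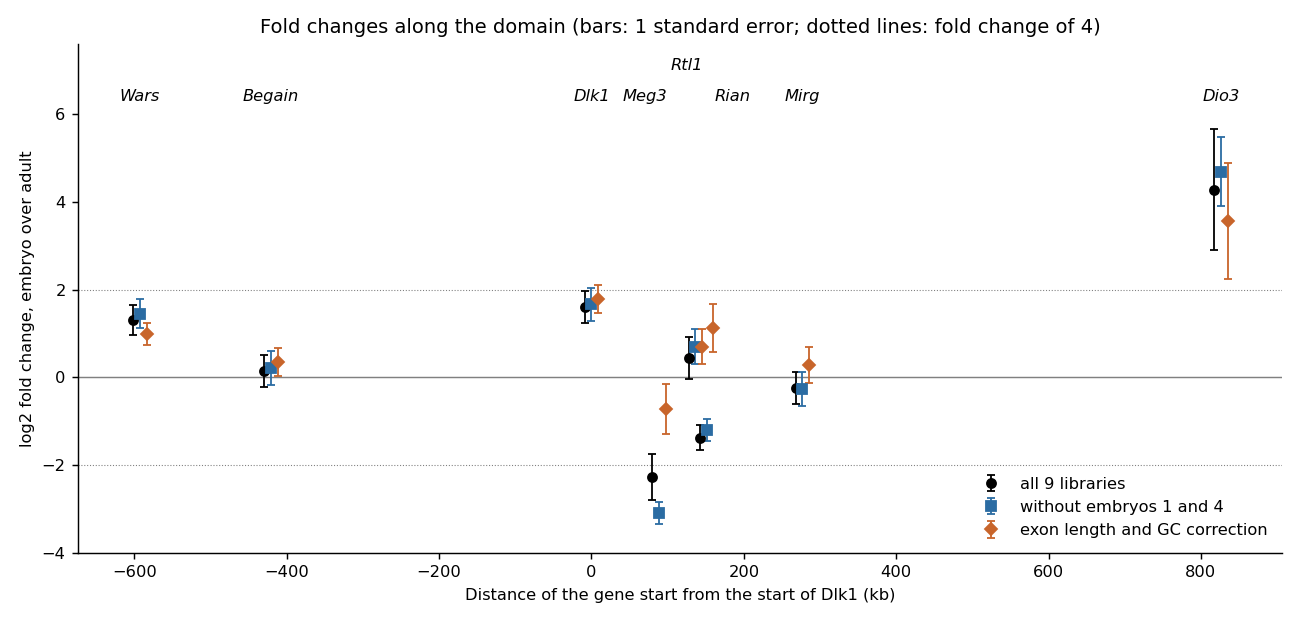
Log2 fold change of each member (embryo over adult, bars of 1 standard error) against the distance of the gene’s start from that of *Dlk1*, offset sideways for legibility. *Rian* lies at −1.38 with all libraries and at 1.13 after the correction for exon length and GC content, while *Dlk1* lies at 1.60 and 1.79.

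*Wars* (ENSMUSG00000021266, chr12:108860030-108894174, minus strand) encodes the cytoplasmic enzyme that joins tryptophan to its tRNA. Its level was 81.7 CPM in the lowest embryo, 102 CPM in the median embryo and 182 CPM in the highest, and 51.1 and 42.2 CPM in adults 1 and 2. All 7 embryos were above both adults, at a log2 fold change of 1.31 (standard error 0.34, edgeR quasi-likelihood test with Benjamini–Hochberg adjusted p = 0.00585). Without adult 2 it was 1.16 and no longer passed the test (edgeR adjusted p = 0.0855).

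*Begain* (ENSMUSG00000040867, chr12:109032187-109068217, minus strand) encodes a protein that binds the postsynaptic scaffold. Its level ran from 7.77 CPM in embryo 6 through a median of 10.8 CPM to 19.9 CPM in embryo 5, and was 11.2 and 10.7 CPM in the adults. The adults lay within the range of the embryos, with 3 embryos above both and 2 below both. A log2 fold change of 0.14 (standard error 0.37) did not pass edgeR’s test (adjusted p = 0.766). Its sign changed in several settings, among them the one without embryo 5 (−0.02).

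*Dlk1* (ENSMUSG00000040856, chr12:109452823-109463336, plus strand) encodes a transmembrane protein of the Notch ligand family that lacks the usual Notch-binding domain. Its level was 1259 CPM in embryo 7, the lowest, 2085 CPM in the median embryo and 2965 CPM in embryo 3, the highest, against 664 and 653 CPM in the adults. Every embryo was above both adults, and embryos 1 and 4 lay inside the range of the others. The log2 fold change was 1.60 (standard error 0.37, edgeR adjusted p = 0.00271), a difference below the threshold of 4-fold. With exon length alone corrected, a setting chosen after seeing the data, it was 2.13 and *Dlk1* was called.

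The promoter table of RefSeq (GRCm38.p6) held a promoter for 6 of the 8 members, and *Wars* and *Rtl1* had none in it. The 250 bases before the start of *Dlk1* (chr12:109452573-109452822, plus strand) and of *Meg3* (chr12:109540746-109540995, plus strand) are shown because these neighbours differed between the stages in opposite directions. Of the 2 starts that the table gives for *Meg3*, the one nearest the start of the gene was used. Both strands were searched for 4 motifs, and capitals mark the matches. These were the TATA box (TATAAA), the cyclic AMP response element (TGACGTCA), the CCAAT box (CCAAT) and the GC box (GGGCGG).
Dlk1: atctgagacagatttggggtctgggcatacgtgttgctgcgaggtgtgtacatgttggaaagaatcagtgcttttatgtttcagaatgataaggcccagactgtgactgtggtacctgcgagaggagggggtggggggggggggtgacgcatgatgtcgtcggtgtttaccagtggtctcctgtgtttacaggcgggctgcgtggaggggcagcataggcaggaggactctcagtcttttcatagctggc
Meg3: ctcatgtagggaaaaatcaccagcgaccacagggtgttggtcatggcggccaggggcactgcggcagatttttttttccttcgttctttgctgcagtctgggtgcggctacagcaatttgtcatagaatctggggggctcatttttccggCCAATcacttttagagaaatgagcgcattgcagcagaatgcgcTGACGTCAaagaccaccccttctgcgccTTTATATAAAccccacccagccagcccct
The *Meg3* sequence held a CCAAT box, a cyclic AMP response element and a TATA box on each strand, the last pair overlapping each other. The *Dlk1* sequence held none of the 4 motifs. Among all 32851 promoter sequences of this length, 12.4% held the TATA box, 1.55% the cyclic AMP response element, 33.8% the CCAAT box and 32.7% the GC box. These matches describe the letters only.

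*Meg3* (ENSMUSG00000021268, chr12:109541001-109571726, plus strand) is a long non-coding RNA kept mainly in the nucleus. Its level was 95.3 CPM in embryo 6, the lowest, 150.4 CPM in the median embryo and 566 CPM in embryo 1, the highest, against 1032 and 1339.8 CPM in the adults. All 7 embryos were below both adults. Embryos 1 and 4 had 566 and 472 CPM, and the other 5 embryos had 95.3 to 164 CPM. The log2 fold change was −2.27 (standard error 0.53, edgeR adjusted p = 0.00257). Without embryos 1 and 4 it was −3.09 (standard error 0.26, edgeR adjusted p = 2.8e-06). *Meg3* remained called with any single library left out. After the correction for exon length and GC content it was −0.72 (standard error 0.56) and was not called (edgeR adjusted p = 0.302), and with exon length alone corrected, chosen after seeing the data, it was −0.50. With GC content alone corrected, also chosen after seeing the data, it was −2.07 and was called (edgeR adjusted p = 0.0141).

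A stretch of *Meg3* could be followed apart from the rest of the gene. Gm26906 is annotated on the minus strand opposite the 3′ end of *Meg3* (chr12:109568628-109571723), all 1228 bp of its exons face *Meg3* exons, and its antisense counts are therefore read pairs on the strand of *Meg3*. This stretch was chosen after its values were seen. It had 13.2 CPM in the lowest embryo, 15.4 CPM in the median embryo and 19.1 CPM in the highest, against 113 and 133 CPM in the adults. All 7 embryos were below both adults, and embryos 1 and 4, at 15.4 and 17.5 CPM, lay among the others. In the fit of the antisense counts, its log2 fold change was −2.94 (standard error 0.23, edgeR adjusted p = 3.2e-07). The stretch made up 2.73% and 3.71% of the *Meg3* count in embryos 1 and 4, 8.91% to 13.9% in the other embryos, against 11.0% in adult 1 and 9.94% in adult 2. The additional *Meg3* counts of embryos 1 and 4 thus lay outside this stretch.

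**Figure D3:**
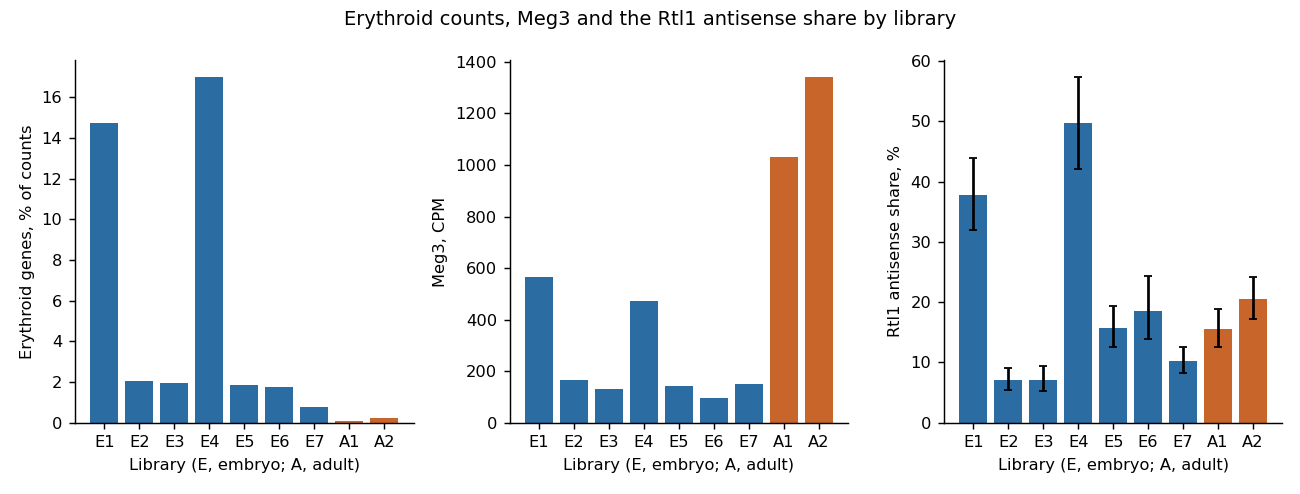
Share of counts on the 9 erythroid genes, CPM of *Meg3* and antisense share of *Rtl1* in each library, with 95% Wilson intervals on the last. Embryos 1 and 4 are the highest of the embryos in all 3 panels, at 566 and 472 CPM for *Meg3* and 37.8% and 49.7% for the antisense share.

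*Rtl1* (ENSMUSG00000085925, chr12:109589193-109600330, minus strand) is a coding gene derived from a Ty3/gypsy retrotransposon and is needed in the placenta. Its level was 5.78 CPM in embryo 4, the lowest, 13.7 CPM in the median embryo and 23.1 CPM in embryo 2, the highest, against 10.6 and 12 CPM in the adults. The groups overlapped, with 4 embryos above both adults and 2 below both. The log2 fold change was 0.44 (standard error 0.48) and did not pass edgeR’s test (adjusted p = 0.454). Without embryos 1 and 4 it was 0.70 (edgeR adjusted p = 0.152). It passed without being called only when longest transcript length and GC content were corrected, a setting chosen after seeing the data (1.24, edgeR adjusted p = 0.0318).

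The strand opposite *Rtl1* carries 6 miRNA hairpins, and 516 bp of the *Rtl1* exon (8.12%) faces them. Their precursor RNA is complementary to the *Rtl1* message, and the miRNAs are known to cut that message. RefSeq (GRCm38.p6) held 11 mature miRNAs of these 6 hairpins (chr12:109590459-109595387, plus strand), out of 113 mature miRNAs of 58 hairpins in the domain. They are shown, with the seed (bases 2 to 8) in capitals, because the antisense counts of *Rtl1* come from the strand that holds them.
mmu-miR-431-5p: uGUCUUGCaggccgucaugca
mmu-miR-431-3p: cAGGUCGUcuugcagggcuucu
mmu-miR-433-5p: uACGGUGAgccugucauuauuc
mmu-miR-433-3p: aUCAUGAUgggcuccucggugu
mmu-miR-127-5p: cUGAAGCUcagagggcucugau
mmu-miR-127-3p: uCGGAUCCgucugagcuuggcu
mmu-miR-434-5p: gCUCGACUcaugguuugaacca
mmu-miR-434-3p: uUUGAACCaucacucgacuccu
mmu-miR-432: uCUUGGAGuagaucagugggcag
mmu-miR-136-5p: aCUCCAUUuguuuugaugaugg
mmu-miR-136-3p: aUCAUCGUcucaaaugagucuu
None of these 11 shared its seed with another mature miRNA of the domain. Among the 113 there were 104 different seeds, and 9 of them were each shared by 2 mature miRNAs.

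The antisense share of *Rtl1*, its antisense count over both counts, was 7.04% in embryo 3, the lowest, 15.7% in the median embryo and 49.7% in embryo 4, the highest. In adults 1 and 2 it was 15.5% (95% Wilson interval 12.6% to 18.8%) and 20.5% (17.3% to 24.1%). Embryo 1 had 37.8% (95% Wilson interval 32.1% to 43.9%) and embryo 4 had 49.7% (42.1% to 57.3%). Both lay above both adults, 3 embryos lay below both, and the intervals cover counting error only. The mean was 2.87 percentage points higher in the embryo, with p = 1 in a two-sided exact permutation test of 7 against 2, which cannot go below 0.0556. Without embryo 4 the difference was −1.94 points. Without embryos 1 and 4 it was −6.29 points (two-sided exact permutation p = 0.286, where 5 against 2 cannot go below 0.0952). The antisense counts themselves ran from 39 to 96 over the embryos, with 80 and 110 for adults 1 and 2. They did not pass edgeR’s test (log2 fold change 0.38, adjusted p = 0.667). Scaled for depth, they were 7.03 and 5.71 CPM in embryos 1 and 4 and 1.70 to 2.54 CPM in the other embryos. The adults had 1.94 and 3.09 CPM.

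The antisense counts of the other members served as a check of the strand. Pooled over libraries, they were at most 2.75% of both strands in the embryo and 0.221% in the adult for every member but *Rtl1*. Of the 5 members that averaged 5 antisense counts or more, 1 was called, against 18.0% of the 6804 genes tested on that strand. This was *Begain*, higher in the embryo as were 6.54% of those genes, and no member was called higher in the adult as were 11.5%. *Begain* reached the mean of 5 antisense counts only through the embryos, so the filter itself bears on this call and its direction. The *Begain* antisense counts were 2 to 17 per embryo, against 0 and 1 for the adults (edgeR adjusted p = 0.0387), and no fold change is given against counts below the floor. No member was called without embryo 2, without embryo 6, without adult 1 or without adult 2. *Dio3* had no antisense count in any library.

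*Rian* (ENSMUSG00000097451, chr12:109603940-109661716, plus strand) is a non-coding RNA whose exons and introns hold snoRNAs, 13 of the 23 annotated in the domain. Its level was 267 CPM in embryo 1, the lowest, 472 CPM in the median embryo and 569.5 CPM in embryo 6, the highest, against 1019.6 and 1191 CPM in the adults. All 7 embryos were below both adults. The log2 fold change was −1.38 (standard error 0.29, edgeR adjusted p = 0.00123), and without embryos 1 and 4 it was −1.21 (edgeR adjusted p = 0.00161). The direction turned to 1.13 (standard error 0.54) after the correction for exon length and GC content, which did not pass the test (edgeR adjusted p = 0.0993). With GC content alone corrected, chosen after seeing the data, it was −0.21 (edgeR adjusted p = 0.690).

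*Mirg* (ENSMUSG00000097391, chr12:109729764-109749460, plus strand) is a non-coding RNA that hosts miRNAs in its exons and introns. Its level was 11.5 CPM in embryo 7, the lowest, 23.9 CPM in the median embryo and 40.3 CPM in embryo 3, the highest, against 24.6 and 33.6 CPM in the adults. The adults lay within the range of the embryos. Its log2 fold change of −0.24 (standard error 0.37) did not pass edgeR’s test (adjusted p = 0.609), and it turned to 0.28 with exon length and GC content corrected.

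*Dio3* (ENSMUSG00000075707, chr12:110279068-110281097, plus strand) encodes the deiodinase that inactivates thyroid hormone. Embryo 1 had no count, which allows up to 0.220 CPM. Embryo 4 had 0.564 CPM and the other 5 embryos 1.31 to 3.68 CPM. The median embryo had 1.44 CPM and embryo 2, the highest, 3.68 CPM, while adults 1 and 2 had 5 counts and 1 count (0.121 and 0.0281 CPM). In 6 of 7 embryos it was above both adults, and at its depth embryo 1 could not be placed above or below either. The log2 fold change, which rests on these few adult counts, was 4.28 (standard error 1.37, edgeR adjusted p = 0.0177), and 4.69 (standard error 0.78, edgeR adjusted p = 3.4e-04) without embryos 1 and 4. It was not called without adult 2 (3.63, edgeR adjusted p = 0.139) or without adult 1 (edgeR adjusted p = 0.0611), where no fold change is given against the single count of adult 2.

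Across the domain, *Dlk1* was the most abundant member per kb of exon, over the exons of all transcripts, at both stages, with a mean of 354 CPM per kb in the embryo and 116 CPM per kb in the adult. In the embryo the order went on with *Wars* (33.5), *Rian* (23.3), *Meg3* (13.6), *Mirg* (3.39), *Begain* (2.74), *Rtl1* (2.41) and *Dio3* (0.763 CPM per kb). Only *Dlk1* was separate from the gene next in order over the 7 embryos, and the ranges of the other neighbours in this order overlapped. Within single libraries, *Meg3* was above *Mirg* and *Rtl1* above *Dio3* in all 7 embryos. The order held in 6 embryos for *Wars* over *Rian*, 5 for *Rian* over *Meg3*, 5 for *Mirg* over *Begain* and 4 for *Begain* over *Rtl1*. In the adult the order was *Dlk1*, *Meg3* (65.6), *Rian* (60.6), *Wars* (13.5), *Mirg* (3.99), *Begain* (2.49), *Rtl1* (1.78) and *Dio3* (0.0368 CPM per kb). Of these neighbours, only *Meg3* and *Rian* overlapped, and *Meg3* was above *Rian* within both adults. Without embryos 1 and 4 the mean of *Meg3* in the embryo was 7.55 CPM per kb. By the longest transcript in place of all exons, *Rian* moved up at both stages. In the adults it then had 126 and 147 CPM per kb, above *Meg3* (mean 81.5) and overlapping *Dlk1* (143 and 140 CPM per kb). In the embryo its mean of 52.6 CPM per kb was then above that of *Wars* (40.1). Among the 19371 genes tested, *Dlk1* ranked 176 per kb in the embryo and 197 in the adult. *Meg3* ranked 3509 and 430, with 5333 in the embryo without embryos 1 and 4, and *Rian* ranked 2267 and 475.

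The members together made up 0.200% of all counts in embryo 4, the lowest, 0.249% in the median embryo and 0.382% in embryo 3, the highest, and 0.319% and 0.374% in the adults. The groups overlapped (two-sided exact permutation p = 0.333, smallest possible 0.0556), also without embryos 1 and 4 (p = 0.571, smallest possible 0.0952). Within the summed level per kb of exon, the make-up differed. *Dlk1* held 77.1% to 85.8% of it in the embryos, against 46.4% in adult 1 and 41.8% in adult 2. *Meg3* held 1.15% to 7.01% in the embryos, but 22.6% in adult 1 and 26.8% in adult 2, and at most 2.88% in the embryos other than 1 and 4. *Rian* held 3.28% to 8.96% in the embryos, but 22.1% in adult 1 and 23.7% in adult 2. These shares carry no correction for length and GC content, under which *Meg3* was no longer called and *Rian* turned.

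**Figure D4:**
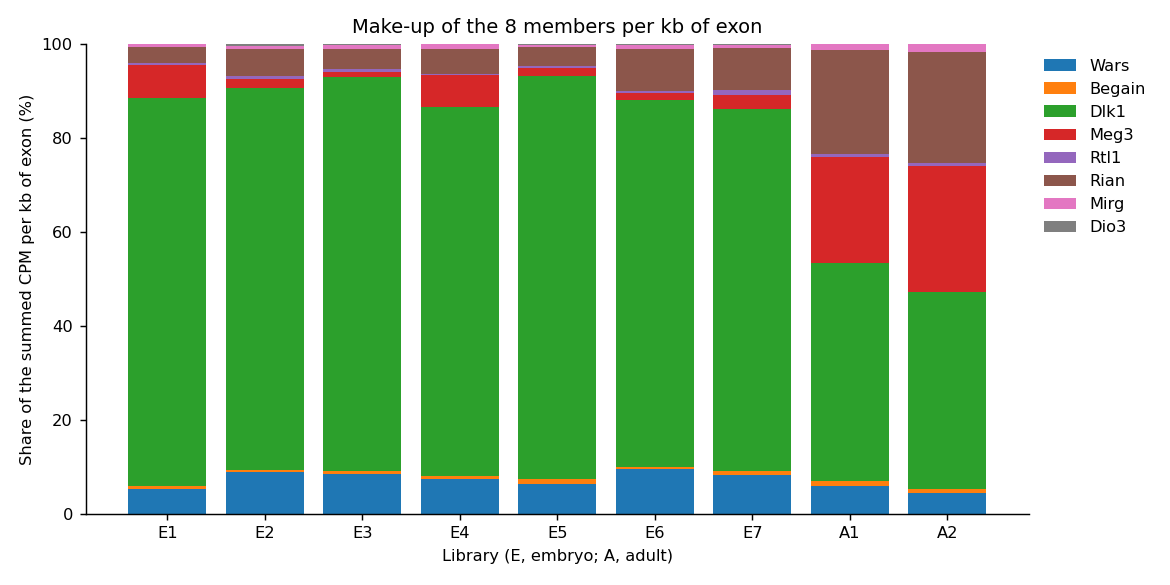
Share of each member in the summed CPM per kb of exon of the 8 members, in each library. *Dlk1* takes at least 77.1% in every embryo and at most 46.4% in the adults, where *Meg3* and *Rian* take more.

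Ratios of counts between neighbouring members do not depend on the scaling of libraries, and 7 were compared with 0.5 added to each count. For 5 of the 7 the groups did not overlap, each with p = 0.0556 in a two-sided exact permutation test, the smallest possible (0.0778 after Benjamini–Hochberg adjustment). The groups likewise did not overlap for 54.0% of the 19349 ratios between genes tested that follow each other on a chromosome, a background added after the values were seen. The log2 ratio of *Meg3* over *Dlk1* was −4.51 in the lowest embryo, −3.73 in the median embryo and −1.83 in the highest, and 0.64 and 1.04 in the adults. *Dlk1* thus had more counts than *Meg3* in all 7 embryos, and *Meg3* had more in both adults. The difference of means was −4.13, and −4.70 without embryos 1 and 4. For *Rtl1* over *Meg3* the difference was 2.85, for *Rian* over *Rtl1* −1.69, for *Dlk1* over *Begain* 1.48 and for *Begain* over *Wars* −1.18. The difference for *Rtl1* over *Meg3* was 3.70 without embryos 1 and 4. The groups overlapped for *Mirg* over *Rian* (1.11) and *Dio3* over *Mirg* (3.94), each with exact permutation p = 0.111. For *Dio3* over *Mirg* the overlap rests on embryo 1, which had no *Dio3* count. Without embryos 1 and 4 the groups did not overlap (5.08, exact permutation p = 0.0952, the smallest possible), and without adult 2 the difference was 2.88. The exon lengths of the 2 genes of a ratio differ, so these ratios are not free of the dependence on length given for *Meg3* and *Rian*. With exon length and GC content corrected, the log2 fold change of *Rian* (1.13) was above those of *Rtl1* (0.70) and *Mirg* (0.28), the opposite order to the ratios of *Rian* over *Rtl1* and *Mirg* over *Rian*.

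**Figure D5:**
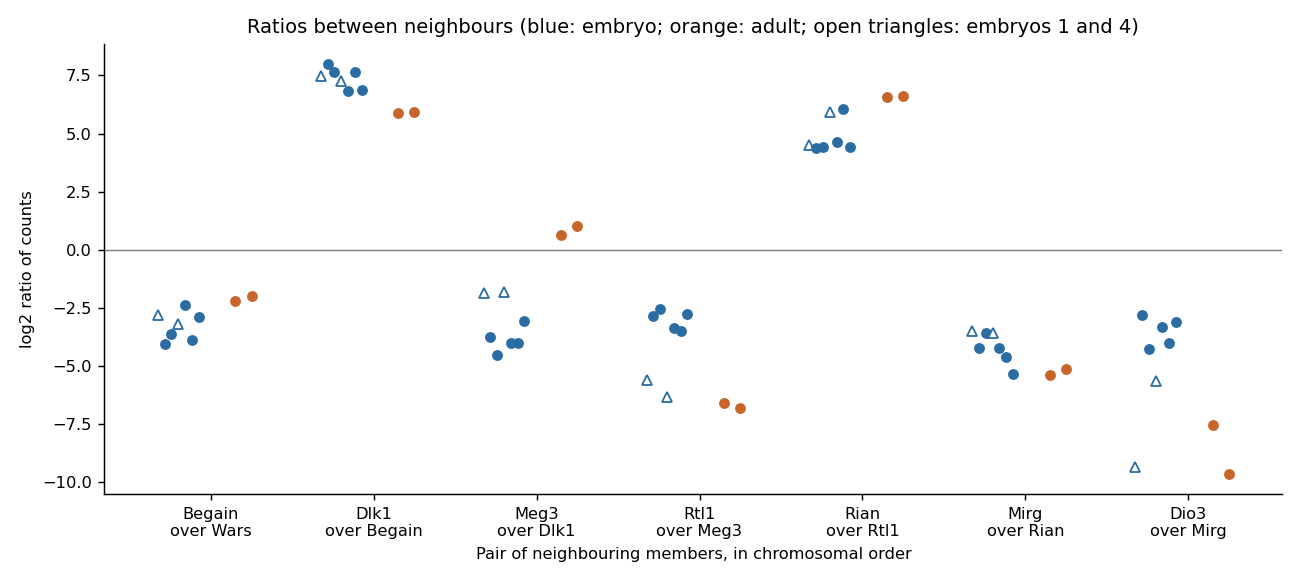
Log2 ratio of counts of each pair of neighbouring members in every library, in chromosomal order. *Meg3* over *Dlk1* is below 0 in all 7 embryos and at 0.64 and 1.04 in the adults, and embryos 1 and 4 lie nearest the adults for *Meg3* over *Dlk1* and *Rtl1* over *Meg3*.

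A further 10 genes of the domain averaged 5 counts or more. Of these, 4 were called higher in the adult and 1 higher in the embryo, against 14.6% and 11.3% of all genes. All 5 reached the mean of 5 counts only through the stage where they were high. The filter itself thus bears on this number of calls, and no excess over all genes is read from it. *Dio3os*, a non-coding RNA that starts beside *Dio3* on the other strand, had 133 counts over the 7 embryos and 4 over the adults (log2 fold change 3.70, standard error 1.29, edgeR adjusted p = 0.0268), all 4 of them in adult 2. It was above both adults in all 7 embryos, embryo 1 among them. Inside *Rian*, the snoRNA gene Gm24564 had 1 count over the embryos and 58 over the adults, DQ267102 had 27 and 76, and the non-coding gene Gm26945 had 7 and 129. These 3 lie on the strand of *Rian*, and poly(A) RNA does not capture most mature snoRNAs. All 3 were called higher in the adult, as was Gm47980 between *Wars* and *Begain* (13 counts over the embryos and 46 over the adults). *Wdr25*, a coding gene on the other strand that starts within *Wars*, did not pass edgeR’s test (log2 fold change 0.42, adjusted p = 0.330). Gm34081 between *Dlk1* and *Meg3* (−1.05) and the pseudogene Gm3379 (1.13) did not pass it either.

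Between *Rian* and *Mirg*, 2 genes were higher in embryos 1 and 4 than in the other embryos. B830012L14Rik had 11.6 and 8.25 CPM there, 0.128 to 1.34 CPM in the other embryos, and 0.533 and 0.421 CPM in the adults. Its log2 fold change was 2.84 (edgeR adjusted p = 0.0917), and 0.96 without those embryos (edgeR adjusted p = 0.285). Gm37899 had 1.24 and 0.494 CPM there, at most 0.122 CPM in the other embryos, and 0.606 and 0.562 CPM in the adults. Its log2 fold change was −1.07 (edgeR adjusted p = 0.482), and without those embryos the edgeR adjusted p was 0.00741, with no fold change given since the other 5 embryos were at or below the floor.

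In embryos 1 and 4 the erythroid list was high together with *Meg3*, B830012L14Rik, Gm37899 and the antisense share of *Rtl1*, and *Dio3* was lowest. Its summed level was 180254 and 225217 CPM there, 6428 to 20019 CPM in the other embryos, and 763 and 1976 CPM in the adults. *Hbb-y* was its most abundant gene in the embryos but was at most 0.218 CPM in the adults. There *Hbb-bs* was highest, at 454 and 1275 CPM. Of the 9 genes, 8 were called higher in the embryo, against 11.3% of all genes, and *Hbb-bh1* was at 0 in both adults. With these 9 genes taken out before scaling, chosen after seeing the data, *Meg3* was at −2.23, which changes the scaling alone. The part of erythroid cells in these results was not tested.

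Marker lists were also counted for the labelled tissues. Of all genes tested, 11.3% were called higher in the embryo and 14.6% higher in the adult. No excess over these shares is read from lists this short. Among 11 genes of the anterior pituitary and its primordium, *Lhx4* and *Hesx1* were called higher in the embryo, and *Pou1f1*, *Tbx19* and *Cga* were called higher in the adult. *Cga* was the most abundant, and the list summed to 1469 to 2533 CPM in the embryos (median 2221) and 8745 and 4695 CPM in the adults. Of 10 markers of adult hormone cells, led by *Gh*, 8 were called higher in the adult. They summed to 545 to 1132 CPM in the embryos (median 761) and 146527 and 159879 CPM in the adults. *Ghrhr* and *Pax7* were at 0 in 6 of 7 embryos, and *Lhb* in 3.

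Of 12 neural and hypothalamic markers, 11 of them tested and led by *Tubb3*, 5 were called higher in the embryo and 1 higher in the adult, with sums of 161 to 527 CPM in the embryos (median 196) and 365 and 306 CPM in the adults. *Rax*, present in all 7 embryos at 29.2 to 92.7 CPM, led the 8 posterior lobe markers, of which 2 were called higher in the embryo and 3 in the adult. That list summed to 72.5 to 189 CPM in the embryos (median 121) and 82.9 and 104 CPM in the adults. *Avp*, made by hypothalamic neurons whose axons end in the posterior lobe, was at 0 in all embryos and at 1.74 and 3.43 CPM in the adults. Of 11 mesenchymal genes, led by *Col3a1*, 7 were called higher in the embryo and 1 in the adult (743 to 2510 CPM in the embryos, median 1811, and 791 and 533 CPM in the adults). Of 8 cartilage genes, led per kb by *Col2a1*, 5 were called higher in the embryo (211 to 409 CPM, median 299.9, against 41.0 and 37.6 CPM), and 6 were tested. *Col11a1* (25.5 and 28.1 CPM) was above *Col2a1* (13.9 and 7.53 CPM) in the adults. Of the untested genes, *Snorc* was at 0 in both adults and 6 of 7 embryos, and *Matn1* in both adults and 2 embryos. Of 7 endothelial genes, led per kb by *Cldn5*, 2 were called higher in the embryo (177 to 596 CPM, median 329, against 133 and 82.6 CPM). *Cldn5* had 5.02 and 3.06 CPM in the adults, where *Kdr* was highest (43.1 and 20.8 CPM). Of 7 macrophage and leukocyte genes, led by *C1qb*, 1 was called higher in the adult (141 to 342 CPM, median 163, against 103 and 165 CPM). The part of these cells in the values of the domain was not tested.

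Genes that work with the members were counted by list, beside the 25.8% of all genes called. Of 13 genes of imprint control, 2 were called higher in the embryo and 3 higher in the adult, with a median log2 fold change of −0.24. *Zfp57*, whose protein binds the methylated copy of imprint control regions, was at 3.92 (standard error 0.36, edgeR adjusted p = 1.9e-06), and the demethylases *Tet1* and *Tet2* were at −2.78 and −2.79. *Trim28*, the most abundant of the list per kb and the partner of ZFP57, was higher in the embryo by less than 4-fold (1.59, edgeR adjusted p = 9.4e-04). Of 20 genes of the Notch pathway, to whose ligand family DLK1 belongs, 2 were called higher in the embryo and none higher in the adult (median 0.36). These were the target genes *Hes1* (2.21) and *Hes5* (2.75), and *Hey1*, the most abundant per kb, was at 1.82.

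Of 22 genes of thyroid hormone handling, the process in which *Dio3* acts, 1 was called higher in the embryo and 7 higher in the adult (median −1.12). *Dio2*, the activating deiodinase, had at most 1.62 CPM in an embryo and 69.8 and 124 CPM in the adults, the opposite order to *Dio3* (log2 fold change −6.66, edgeR adjusted p = 4.8e-07). The receptor *Thrb* was at −6.46 and the hormone-binding *Crym* at 6.04, while *Tshb*, the most abundant of the list per kb, did not pass the test (−0.64, edgeR adjusted p = 0.267). Of 23 aminoacyl-tRNA synthetases and partners, the family of *Wars*, 2 were called, *Aimp2* (2.16) and *Eef1e1* (2.03), both higher in the embryo (median 0.33), and *Sars* led the list per kb (0.98). Of 11 genes related to *Rtl1*, 2 were called higher in the embryo, *Rtl3* and *Ldoc1*, with *Rtl8c* most abundant per kb (−1.19) and a median of −0.26. *Rtl3* had 12.6 to 46.5 CPM in the embryos, and 0.0242 and 0.0843 CPM, at or below the floor, in the adults. *Ldoc1* had at most 0.544 CPM in an embryo, and 0 and 0.0281 CPM in the adults, and no fold change is given for either.

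Of 12 postsynaptic scaffold genes, the partners of *Begain*, 6 were called higher in the adult and none in the embryo (median −2.44). Those named were *Dlg2* (−4.65), *Shank1* (−4.10) and *Dlgap1* (−3.91), and *Dlgap4* led the list per kb (0.23). Of 12 nuclear or snoRNA-hosting non-coding RNAs, *Snhg1* (2.04) was called higher in the embryo and *Neat1* (−5.0) and *Miat* (−2.23) higher in the adult (median −0.07), and *Gas5* led per kb (1.25).

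Over the 7 embryos, the genes most like each of 4 members were named by Pearson’s r of log2 CPM among 12738 genes, as a description from libraries that share their stage. For *Dlk1* these were *U2af2*, *Pus1*, *Psmd3*, *Atad3a* and *Ppan*, with r from 0.971 to 0.988. For *Meg3* they were *Zmat1*, Gm6278, *Chd7*, *Prkcb* and Gm16536, with r from 0.980 to 0.990, which rested in part on embryos 1 and 4 (0.734 to 0.956 without them). For *Rian* they were *Rab32*, *Sf3a3*, *Tubgcp4*, *Atp6v1h* and *Ppp2ca*, and for *Rtl1* they were *Nhlrc2*, *Pdk4*, *Cadps*, *Tatdn2* and *Tmcc3*.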

How the data were processed

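RNA was measured in 7 embryo and 2 adult libraries, grouped by their labels, each from a separate animal. Per the labels and methods, the authors made directional poly(A) libraries from 50 ng of RNA, read 75 bp from both ends, trimmed with Trimmomatic 0.39 and used STAR 2.7.5b for alignment to mm10. The deposited values are whole, unscaled counts of read pairs by gene from STAR, unstranded and for each strand. The count on the gene’s strand was used, the opposite strand was the antisense count, and read pairs that STAR assigned to no gene were left out. All 55450 identifiers were found in GENCODE mouse release 21 (Ensembl 96, GRCm38).

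Counts were scaled with TMM and fitted with edgeR 4.0.16 in R 4.3.3, with stage as the only term. The fit took the 19371 genes that averaged 5 counts or more. It was also run on simulated counts with equal scatter for every gene and no effect of length or GC content. That run does not bear on the settings under which *Meg3*, *Rian* or *Dio3* changed. Adjusted p-values are Benjamini–Hochberg values over all genes tested. Antisense counts were fitted likewise with the library sizes of the sense counts. Shares and ratios were compared in Python 3.11.15 with two-sided exact permutation tests over the 36 arrangements of 7 and 2 libraries. Counting intervals are 95% Wilson intervals, and copies made by PCR were not told apart. Levels per kb use the exons of all transcripts of a gene. No libraries of a stage agreed within sampling noise (chi-square per degree of freedom at least 44.5). Depths for embryos 1 to 7 were 16738863, 28537311, 24816013, 18825731, 24687556, 22393725 and 25755469 counted pairs. With 2 adults, the spread of the adult group rests on 1 difference. The adults were a male and a female, so this difference cannot be told apart from one of sex. Leaving out either adult also leaves a single sex in that group.

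The members and lists were chosen with earlier results of these data known. The genes named are the members, every other gene of the domain that averaged 5 counts or more, the most abundant gene per kb and up to 3 called genes of each list, and the 5 genes most like each of 4 members. Gm26906, and markers singled out beyond the most abundant of a list, were named after their values were seen. The alternatives were DESeq2 1.42.0, other scalings, filters, thresholds and count columns, corrections for length and GC content by splines with 4 degrees of freedom, a replicate block and libraries left out. The result of 1 marker gene is not reported here.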

Additional observations from a re-analysis of the deposited data

Results flagged for a closer look

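Among 27 sets of embryo values, 4 had a sample far from the other embryos, where chance gives about 1 in 20 for continuous values, a rate that does not apply to Gm24564 and Gm26945, at 0 in most embryos. The measure is the gap of the extreme embryo to its nearest neighbour over the whole range of the 7 embryos. It was 1 for Gm24564 in embryo 5, which rests on a single count. It was 0.812 for Gm26945 in embryo 7, at 0.192 CPM, on 7 counts over all embryos. It was 0.603 for Gm37899 in embryo 1 (1.24 CPM) and 0.628 for Gm3379 in embryo 4 (1.06 CPM). *Meg3* did not pass this measure, since embryos 1 and 4 were both high.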

How the results depend on the processing

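The 5001 genes and 2 members called became 8960 and 5 at a fold change of 2, 9948 and 5 with no threshold on fold change, and 1744 and 0 when the fold change itself was tested against 4. With a library left out they ran from 3683 to 5290 genes and from 1 to 2 members, *Dio3* being lost without either adult, where the lone adult is assumed to vary as the embryos do. Correcting exon length and GC content left 1 member, *Dio3*, as did longest transcript length and GC content, chosen after seeing the data, and the cause was not tested. *Rian* turned to 1.13 and 0.90 under these and to 0.53 with exon length alone, and *Mirg* turned to 0.28 with exon length and GC content and to 0.63 with exon length alone. *Meg3* was −0.72, −0.37 and −0.50, and −2.07 with GC content alone, where it was called. *Begain* turned to −0.056 with library size alone, −0.19 with GC content alone and −0.067 in the fit of libraries 1 and 2 with a replicate block, and with a library left out it ran from −0.021 (without embryo 5) to 0.27. The median of all genes moved from −0.04 to −0.26 with library size alone, to 0.13 with GC content alone and to −0.25 in the fit with the block, which also left out embryos 3 to 7. Equal replicate numbers mark different animals, so they pair nothing. The block on libraries 1 and 2 called 4151 genes and 0 members. *Meg3*, at −1.90 (edgeR adjusted p = 0.00156), missed only the threshold of 4-fold, and *Dio3*, at 2.92, did not pass the test (edgeR adjusted p = 0.419). Members called on the antisense strand ran from 0 to 1 with a library left out and were 2, *Begain* and *Meg3*, without embryos 1 and 4. The antisense difference of *Rtl1* ran from −1.94 to 5.38 points with a library left out, and was −6.29 without embryos 1 and 4. The 7 ratios and the share of the domain kept their direction with any library left out, and the ratios with a pseudocount of 1. Neither was run with length or GC content corrected. The depth limits *Dio3*, *Dio3os* and the antisense counts, which rest on few read pairs.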
